A study of Homo sapiens with 18 samples.

Results

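The genes described here are 10 protein-coding genes of the Williams region at 7q11.23 on human chromosome 7, namely BAZ1B, STX1A, ELN, LIMK1, EIF4H, LAT2, RFC2, CLIP2, GTF2IRD1 and GTF2I. They were selected by position, around the longest peak in the xChIP H1.2 list, and are 10 of the 20098 protein-coding genes annotated on chromosomes 1 to 22 and X. The values that chose them were the lengths of the xChIP H1.2 peaks: the longest spanned 475.7 kb and lay here, and the next in rank spanned 368.2 kb on chromosome 1. The xChIP H1.2 values of these genes therefore describe the choice and are given without a test.

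The study mapped the linker histones H1.2 and H1.5 in HL-60/S4, an established human myeloid leukemia cell line, in the undifferentiated and untreated state. All cells were fixed with formaldehyde and permeabilized before any antibody was added. In the 2 xChIP groups (H1.2 and H1.5) the chromatin was sonicated first and then incubated with rabbit antibody, whereas in the 2 xxChIP groups the antibody was applied to the permeabilized cells, the cells were fixed again, and sonication followed. Each of the 4 groups had 3 replicates (12 immunoprecipitated samples of 18; the 6 Input samples were not analysed here), and the authors merged the peaks of the replicates into 1 list per group. The cells are 1 line, so nothing here separates the line from the cell type. The lists hold positions only, so the depth behind a peak is unknown, no replicate error can be given, and no test of a difference was possible. The copy number of 7q in these cells was not measured here. Sonication before or after the antibody, the additional fixation, the antibody amounts and the buffers differ together between xChIP and xxChIP, and their parts in any difference cannot be told apart.

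Linker histones bind where DNA enters and leaves the nucleosome and favour the folding of the chromatin fibre. In xChIP the fibre is broken into short pieces before the antibody meets it, while in xxChIP the antibody meets H1 in the folded chromatin of the permeabilized nucleus. The xxChIP lists thus report H1 epitopes that the antibody could reach in place. Loss of the genes considered here from either copy of the chromosome causes Williams syndrome, in which vessel walls, growth and cognition are affected. The region is flanked and partly built by segmental duplications, stretches of nearly identical sequence that promote the deletion.

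Sequences of 4 promoters show the range of patterns among the genes. They are the 250 bases upstream of the outermost annotated transcription start site (TSS) on the strand of the gene, read from hg19 (GRCh37), with CpG dinucleotides in capitals. ELN (chr7:73441869-73442118, plus strand) had no peak of any list within 1000 bp of its TSS. EIF4H (chr7:73588311-73588560, plus strand) was covered in xChIP H1.2 only. CLIP2 (chr7:73703487-73703736, plus strand) and GTF2I (chr7:74064321-74064570, plus strand) were fully covered in both xChIP lists.
ELN: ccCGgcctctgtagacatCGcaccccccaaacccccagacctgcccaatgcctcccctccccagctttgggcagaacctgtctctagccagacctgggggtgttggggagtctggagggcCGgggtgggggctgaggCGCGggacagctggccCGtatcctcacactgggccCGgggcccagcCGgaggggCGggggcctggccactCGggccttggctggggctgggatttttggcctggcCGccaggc
EIF4H: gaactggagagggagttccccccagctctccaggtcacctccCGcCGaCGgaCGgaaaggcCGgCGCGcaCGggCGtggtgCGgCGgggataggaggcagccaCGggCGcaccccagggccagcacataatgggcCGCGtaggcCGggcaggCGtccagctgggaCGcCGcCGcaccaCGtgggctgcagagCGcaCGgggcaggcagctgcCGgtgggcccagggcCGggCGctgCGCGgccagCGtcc
CLIP2: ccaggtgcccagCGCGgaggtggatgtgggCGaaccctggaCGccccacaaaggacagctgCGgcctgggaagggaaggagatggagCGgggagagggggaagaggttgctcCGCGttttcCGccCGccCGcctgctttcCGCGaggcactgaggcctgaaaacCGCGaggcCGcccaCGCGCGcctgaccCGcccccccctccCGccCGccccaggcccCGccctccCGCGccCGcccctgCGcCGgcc
GTF2I: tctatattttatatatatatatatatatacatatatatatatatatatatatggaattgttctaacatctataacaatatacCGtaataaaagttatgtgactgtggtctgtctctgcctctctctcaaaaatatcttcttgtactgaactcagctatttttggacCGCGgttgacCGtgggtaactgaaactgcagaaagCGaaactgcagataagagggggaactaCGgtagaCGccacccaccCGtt
The GC content of these stretches was 71.6% for ELN, 76% for EIF4H, 75.6% for CLIP2 and 35.6% for GTF2I, against a median of 59.6% over all 20098 promoters. The numbers of CpG were 11, 29, 28 and 8 in the same order, against a median of 14. ELN, with no peak, had fewer CpG than EIF4H or CLIP2 at a similar GC content. At the outermost starts a low CpG number did not set it apart, as GTF2I (8), LIMK1 (8) and LAT2 (6) had fewer. BAZ1B (22), RFC2 (30) and STX1A (31) had more. The promoters of all these genes but ELN were fully covered by xChIP H1.2. The AT-rich sequence of GTF2I belongs to its outer start and not to its canonical one, which lies 7473 bp downstream. The 250 bases before the canonical start had a GC content of 58.8% and 28 CpG, and the 1000 bp on either side of it were covered to 100% by H1.2 and to 0% by H1.5 in xChIP.

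Across the 2 Mb around them (chr7:72500001-74500000), xChIP peaks covered most of the sequence and xxChIP peaks nearly none. In xChIP, H1.2 peaks took up 94.7% of the 2 Mb, against 26.4% of the genome, and H1.5 peaks 55.0%, against 16.3%. In xxChIP the shares were 3.27% for H1.2, against 20.2% of the genome, and 1.87% for H1.5, against 17.2%. Relative to the genome, the ratios were 3.59 and 3.37 for the xChIP lists and 0.162 and 0.109 for the xxChIP lists. Among 1407 windows of 2 Mb in the genome, 1 had a higher xChIP H1.5 coverage than this one, while 1400 had a higher xxChIP H1.2 coverage and 1403 a higher xxChIP H1.5 coverage.

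The xChIP H1.2 domain was made of few and long peaks, and the peaks of the other lists were shorter. There were 20 xChIP H1.2 peaks with a median length of 54824 bp, against 2334 bp over the whole list. The 86 xChIP H1.5 peaks had a median of 3706 bp (whole list, 2100 bp) and a longest of 136624 bp. The 37 xxChIP H1.2 peaks had a median of 1445 bp (whole list, 2168 bp), and the 23 xxChIP H1.5 peaks a median of 1388 bp (whole list, 2033 bp). In both xxChIP lists, then, the few peaks found here were shorter than usual for their list, with a longest of 6092 bp for H1.2 and 3255 bp for H1.5.

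In windows of 10 kb, 193 of 200 were covered to at least 50% by xChIP H1.2 peaks, where 20.8% of windows genome-wide were. The H1.5 count in xChIP was 105 of 200 (genome-wide 9.23%). In xxChIP only 1 of 200 windows passed for H1.2 (genome-wide 13.4%) and 0 of 200 for H1.5 (genome-wide 10.3%). Windows without any peak numbered 1 (H1.2) and 35 (H1.5) in xChIP against 164 and 176 in xxChIP. No genome-wide share is given for windows without a peak, so these counts do not show whether the region is unusual. The highest xxChIP H1.2 window reached 54.6% and lay between STX1A and ELN, and the next, at 41.1%, lay in the 3' part of ELN. The 7 windows with xChIP H1.2 below 50% lay at the start of ELN (2 windows), in GTF2I, at the 3' ends of STX1A and EIF4H, and beyond GTF2I (2 windows), and the first of these held no xChIP H1.2 peak at all.

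**Figure D1:**
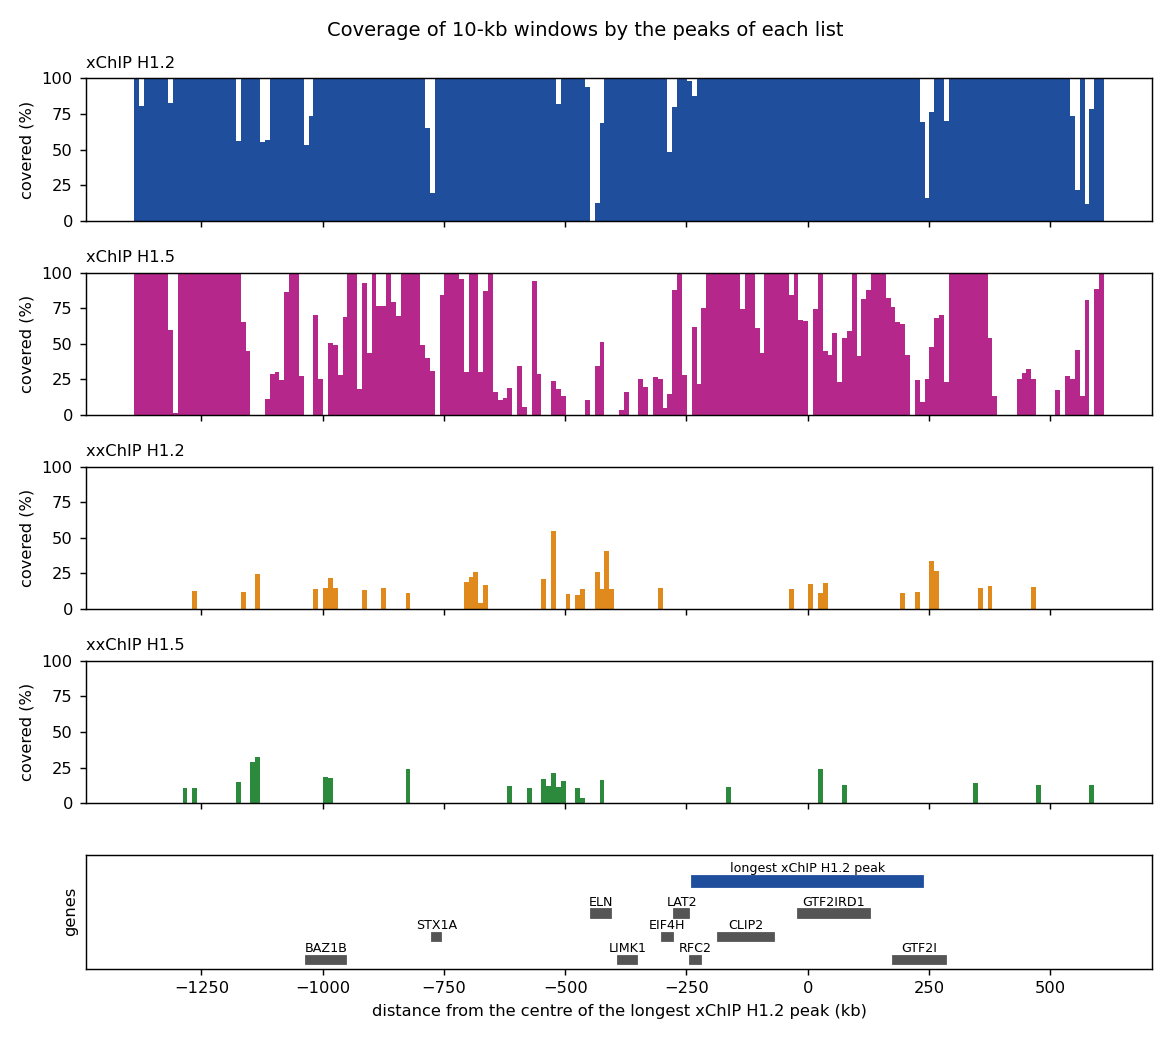
Percent of each 10-kb window covered by peaks of each list (one panel per list), against distance in kb from the centre of the longest xChIP H1.2 peak, with that peak and the 10 genes drawn to scale in the lowest panel. The xChIP H1.2 panel is full except for a few dips (193 of 200 windows at 50% or more), xChIP H1.5 is patchy (105 of 200), and the xxChIP panels show scattered bars that reach 54.6% (H1.2) and 32.6% (H1.5).

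Base by base, 51.2% of the 2 Mb was covered by both xChIP lists and by no xxChIP list, 38.9% by xChIP H1.2 alone and 1.40% by xChIP H1.5 alone. No list covered 3.81%, and all 4 lists together covered 0.321%, which was 6423 bp. Of the sequence in xChIP H1.5 peaks, 97.3% lay inside xChIP H1.2 peaks (54.8% genome-wide), and 56.5% of the sequence in xChIP H1.2 peaks lay inside xChIP H1.5 peaks (33.9% genome-wide). With 94.7% of the region in xChIP H1.2 peaks, nearly any list would lie inside them. Of the xxChIP H1.2 sequence, 16.4% lay inside xxChIP H1.5 peaks (43.7% genome-wide), and in the reverse direction 28.5% (51.3% genome-wide). The xxChIP lists are also sparser here, with 3.27% (H1.2) and 1.87% (H1.5) of the region against 20.2% and 17.2% of the genome. The lower shares therefore do not show that the 2 lists agree less here. Over the 200 windows, which lie side by side and share base composition, Pearson's r between the 2 xChIP lists was 0.171 and between the 2 xxChIP lists 0.312.

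The region is GC-rich and partly duplicated. The median GC content of its 10-kb windows was 50.3%, and 92.4% of the 283564 windows of the genome lay below that value. Within the region, r between GC content and coverage was -0.04 for xChIP H1.2 and -0.19 for xxChIP H1.2 over the 200 windows. As 173 of the windows were at 100% for xChIP H1.2 and 164 at 0% for xxChIP H1.2, these values say little about GC content. As a measure of how well reads can be placed, a stretch of 100 bases that occurs once in hg19 on either strand was called unique, and 77.9% of the stretches starting in the region were. In the 57 windows with less than 90% unique stretches, xChIP peaks of H1.2 and of H1.5 covered 93.9% and 62.4% on average, and the xxChIP means were 2.11% and 1.33%. In the other 143 windows the means were 94.97% and 52.0% in xChIP and 3.73% and 2.09% in xxChIP. High xChIP and low xxChIP coverage were found in both sets of windows, and the high xChIP H1.2 coverage follows from the choice of the region. The parts of read placement and of GC content in the contrast were not tested.

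Gene by gene, xChIP H1.2 peaks covered between 53.2% and 100% of each gene body, and xxChIP peaks covered less than 20% of any. At least 50% of the body was covered in 10 of 10 genes by xChIP H1.2, where 31% of all protein-coding genes were. As these genes were chosen for lying around the longest peak of this list, nothing is read from that count. The count was 3 of 10 for H1.5 in xChIP (4.88% of all genes). In xxChIP it was 0 of 10 both for H1.2 (2.2% of all genes) and for H1.5 (1.8% of all genes). The last pair of counts is near the background, where coverage of 50% is rare in the xxChIP lists. The medians of the gene-body coverage differed between the lists as well. In xChIP the median was 92.7% for H1.2 (all genes, 26.3%) and 34.2% for H1.5 (all genes, 10.3%). In xxChIP it was 0% for both, where the medians of all genes were 5.88% for H1.2 and 4.30% for H1.5. Not all genes were below these medians, as ELN (19.4%), BAZ1B (7.95%) and GTF2I (7.64%) were above that of H1.2 and BAZ1B (4.37%) was above that of H1.5. In each xxChIP list 6 of the 10 genes held no peak, where 39.4% of all genes held none for H1.2 and 42% for H1.5. With 10 genes this count is not far from these shares, and it is what sets both xxChIP medians to 0%.

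**Figure D2:**
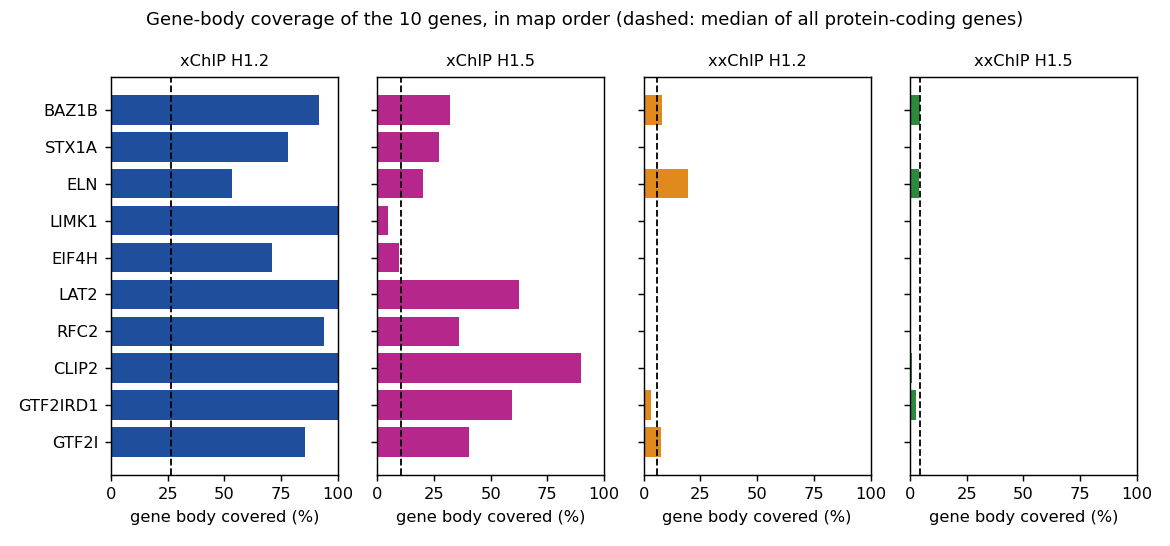
Percent of the gene body covered by peaks of each list, for the 10 genes in the order of the map; the dashed line is the median of all 20098 protein-coding genes. The xChIP H1.2 bars run from 53.2% to 100% and all pass the line at 26.3%, the xChIP H1.5 bars run from 4.86% (LIMK1) to 89.6% (CLIP2), and the largest xxChIP bar is ELN at 19.4% for H1.2.

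At the promoter, taken as the outermost TSS and 1000 bp on either side, 9 of 10 genes had an xChIP H1.2 peak (48.2% of all genes), and in all 9 the promoter was covered completely (29.3% of all genes). An xChIP H1.5 peak was present at 6 of 10 promoters (21.6% of all genes), of which 4 were covered completely (5.69% of all genes). At the canonical start sites the H1.5 count was 5, without GTF2I. In xxChIP 0 of 10 promoters had a peak of H1.2 (8.78% of all genes) and 0 of 10 a peak of H1.5 (7.92% of all genes), and with 10 genes a count of 0 is near these backgrounds. Counting any annotated TSS of a gene, 2 of 10 genes had an H1.2 peak of xxChIP (27.6% of all genes) and 1 of 10 an H1.5 peak (25.3% of all genes). A promoter with both xChIP peaks and no xxChIP peak was found in 6 of 10 genes, against 12.6% of all genes. That call needs an xChIP H1.2 peak, which the choice of the region favours, so nothing is read from the count. The nearest xxChIP peaks lay far from the outermost start sites. The median distance was 21.9 kb to a peak of H1.2 and 48.4 kb to one of H1.5, where the medians over all genes were 7.2 kb and 8.6 kb.

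**Figure D3:**
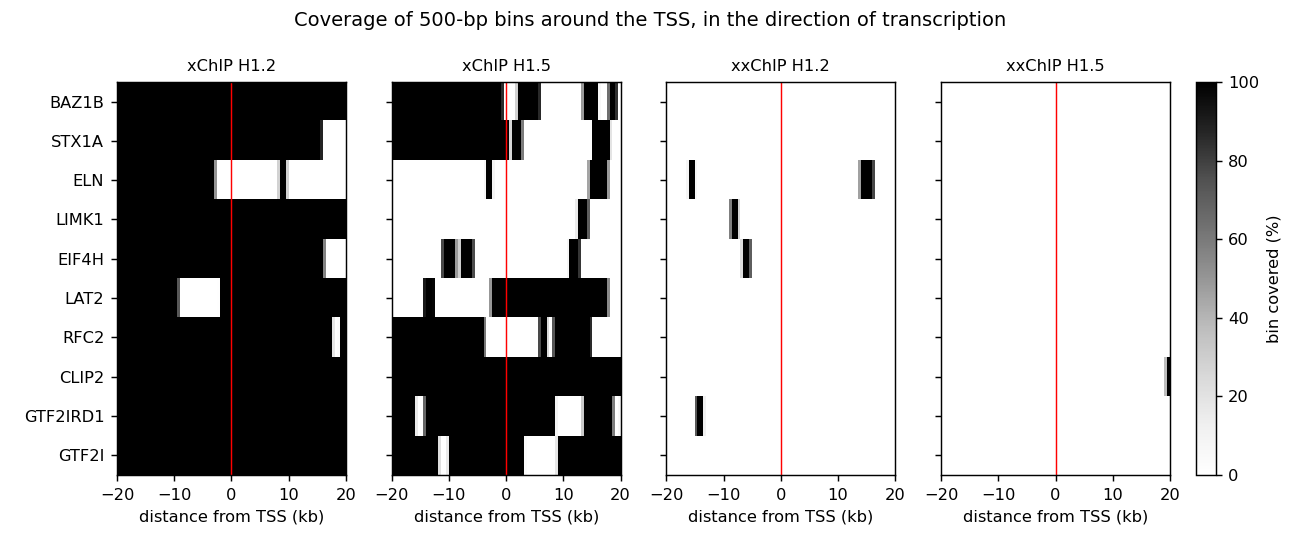
Percent of each 500-bp bin covered by peaks of each list (grey scale, 0 to 100%) from 20 kb upstream to 20 kb downstream of the TSS (red line) of the 10 genes, in the direction of transcription. xChIP H1.2 fills most bins, with gaps around the TSS of ELN, upstream of LAT2 and downstream of the TSS of RFC2, EIF4H and STX1A. xChIP H1.5 peaks lie within 1000 bp of 6 outermost start sites. Both xxChIP panels are blank at every outermost start site, the nearest xxChIP peak being 5.2 kb from the TSS of EIF4H.

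Among the genes for transcription and chromatin, GTF2I (ENSG00000263001, chr7:74064571-74175022, plus strand) encodes TFII-I, a transcription factor that binds initiator elements. In xChIP, H1.2 peaks covered 85.4% of its body and H1.5 peaks 40.4%. In xxChIP the coverage was 7.64% (H1.2) and 0% (H1.5). The promoter at its outer TSS was fully covered in both xChIP lists and free of xxChIP peaks, while the canonical start, 7473 bp downstream, was fully covered by H1.2 and had no H1.5 peak within 1000 bp. It is also the gene whose values are least certain, since only 77.1% of its 100-base stretches were unique. Copies of GTF2I lie in the flanking duplications. Its 3 xxChIP H1.2 peaks included the longest of the region, 6092 bp at chr7:74146604-74152695, which touched 5 exons and in which 27.0% of stretches were unique. The other 2 peaks of 1149 bp and 1195 bp were intronic and in unique sequence. GTF2I has 21 annotated start sites, and an xxChIP H1.2 peak lay within 1000 bp of 4 of them.

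GTF2IRD1 (ENSG00000006704, chr7:73868120-74016931, plus strand) encodes a related factor of the TFII-I family and is the longest of the 10 genes at 148812 bp. The xChIP coverage was 100% for H1.2 and 59.6% for H1.5, and the xxChIP coverage was 3.13% and 2.49%. The xChIP H1.5 signal was split into 12 peaks that ran along the whole gene, while 1 xChIP H1.2 peak spanned it. Nearly all of the gene (99.8%) was unique sequence. Each xxChIP list had 3 peaks in it. At chr7:73910734-73911835, an intronic stretch 43.2 kb from the TSS, a peak of xxChIP H1.2 lay wholly inside peaks of the other 3 lists.

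BAZ1B (ENSG00000009954, chr7:72854736-72936623, minus strand) encodes WSTF, a subunit of ISWI-type chromatin remodelling complexes. Peaks of H1.2 covered 91.5% of it in xChIP but 7.95% in xxChIP, and peaks of H1.5 covered 32.2% and 4.37%. In xChIP, its promoter was fully covered by H1.2 and to 21.3% by H1.5. The exons had less xChIP H1.2 coverage (63.9%) than the introns (94.1%), and the stretches without an xChIP H1.2 peak, of 4298, 409 and 2264 bp, all lay towards the 3' end. With 4 xxChIP H1.2 and 2 xxChIP H1.5 peaks, BAZ1B had the most xxChIP peaks of the genes here together with GTF2IRD1. All 6 were intronic, and a stretch at chr7:72905480-72906673, 30.5 kb from the TSS, was again in all 4 lists.

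The sequence where both xxChIP lists met in GTF2IRD1 began with a TG repeat. The first 150 bases of that stretch (chr7:73910734-73910883, plus strand of hg19) are printed with TG dinucleotides in capitals, since this was 1 of 2 sites in the 10 genes where all 4 lists met.
GTF2IRD1 shared stretch: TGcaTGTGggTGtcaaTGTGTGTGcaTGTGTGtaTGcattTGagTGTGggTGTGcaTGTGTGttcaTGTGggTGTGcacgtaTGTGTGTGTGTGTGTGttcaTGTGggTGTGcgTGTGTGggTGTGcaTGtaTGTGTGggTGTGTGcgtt
A run of TG repeated at least 5 times, or of CA for the opposite strand, was present in 2 of the 13 H1.2 peaks and 2 of the 7 H1.5 peaks that xxChIP gave in the 10 genes. Genome-wide such a run was present in 27.2% and 26.7% of the H1.2 and H1.5 peaks of xxChIP, whose median length is above that in the region, and in 20.7% and 16.8% of those of xChIP. Among the xChIP peaks in the 10 genes, 6 of 10 for H1.2 and 14 of 43 for H1.5 held such a run, which are larger shares than genome-wide. The xChIP peaks of the region are also longer than those of the whole lists, and the part of length in these shares was not tested. The repeat is shown as a description of the site.

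For DNA replication, RFC2 (ENSG00000049541, chr7:73645829-73668788, minus strand) encodes a subunit of replication factor C, which loads the sliding clamp PCNA. In xChIP it was covered to 93.9% by H1.2 and to 36.2% by H1.5, and it held no xxChIP peak (0% in both lists). Its promoter lay fully inside an xChIP H1.2 peak, while the nearest H1.5 peak was 3.7 kb away. A gap of 1405 bp between 2 xChIP H1.2 peaks lay inside it, and the longest peak of the list began at the edge of this gap.

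For translation, EIF4H (ENSG00000106682, chr7:73588561-73611452, plus strand) encodes a factor that stimulates the RNA helicase of translation initiation. The xChIP peaks of H1.2 covered 71.1% of the body and those of H1.5 covered 9.47%, with 0% in both xxChIP lists. At the promoter H1.2 coverage was 100% and H1.5 coverage 0%. The last 6609 bp of the gene were outside xChIP H1.2 peaks. As that part holds most of the exonic sequence, exons were covered to 23.9% and introns to 87.2%. Its xChIP H1.5 coverage was below the median of all genes at 10.3%, and among the 10 genes only LIMK1 had less.

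Of the cytoskeletal genes, LIMK1 (ENSG00000106683, chr7:73497263-73536855, plus strand) encodes a kinase that phosphorylates cofilin and so stabilises actin filaments. It showed the widest gap between the 2 histones. The body and promoter were covered to 100% by xChIP H1.2, while xChIP H1.5 covered 4.86% of the body through 1 peak of 1926 bp and 0% of the promoter. No xxChIP peak lay in the gene. For xChIP H1.5, 35.2% of all protein-coding genes had a lower body coverage than LIMK1.

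CLIP2 (ENSG00000106665, chr7:73703737-73820265, plus strand) encodes a linker protein that binds microtubule ends. It was the opposite case, with xChIP coverage of 100% for H1.2 and 89.6% for H1.5, and 98.7% of all genes had a lower xChIP H1.5 coverage. The xChIP H1.5 coverage came from 3 long peaks of 82309, 28750 and 56515 bp, the outer ones reaching beyond the gene. The xxChIP H1.2 list had no peak in the gene, and xxChIP H1.5 covered 0.953% of it with 1 peak of 1110 bp. LIMK1 and CLIP2 had similar GC content over the gene, 54.6% and 52.1%.

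LAT2 (ENSG00000086730, chr7:73613982-73644164, plus strand) encodes a transmembrane adaptor of immune receptor signalling in mast cells, B cells and myeloid cells. The gene was covered completely by H1.2 and to 62.4% by H1.5 in xChIP, and to 0% by either in xxChIP. The promoter was fully covered in both xChIP lists. All 8 annotated start sites, of which the canonical one lies 10354 bp into the gene, had both xChIP peaks and no xxChIP peak. Expression was not measured here.

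ELN (ENSG00000049540, chr7:73442119-73484237, plus strand) encodes elastin, the elastic protein of vessel walls, made by smooth muscle cells and fibroblasts. It was the exception among the 10 genes. Its H1.2 coverage in xChIP, 53.2% of the body, was the lowest of the 10, and in xxChIP, 19.4%, the highest. For H1.5 the coverage was 20.3% in xChIP and 3.83% in xxChIP. Its promoter was the only one of the 10 without a peak of xChIP H1.2, and it had no peak in the other lists either. The first 8360 bp from the TSS were free of all 4 lists, and the ELN promoter sequence printed above belongs to the same uncovered stretch, which reached 2.5 kb upstream to an xChIP H1.5 peak and 2.8 kb upstream to an xChIP H1.2 peak. After an xChIP H1.2 peak of 1279 bp, another 11340 bp were free of xChIP H1.2 peaks, of which 30.6% lay in xChIP H1.5 peaks and 23.1% in an xxChIP H1.2 peak. That peak (chr7:73455888-73458507, 2620 bp, touching 4 exons) was the only xxChIP peak in the 10 genes that lay outside xChIP H1.2. For xxChIP H1.2, 82.2% of all genes had a lower body coverage than ELN, so its value is high among these genes and not extreme in the genome. Of its 24 annotated start sites, xChIP gave a peak within 1000 bp of 3 for H1.2 and of 4 for H1.5, and xxChIP of 1 and 2.

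STX1A (ENSG00000106089, chr7:73113536-73134002, minus strand) encodes syntaxin 1A, a SNARE protein of synaptic vesicle fusion. In xChIP the body was covered to 77.9% (H1.2) and 27.0% (H1.5) and the promoter to 100% (H1.2) and 81.6% (H1.5). Neither xxChIP list had a peak in the gene. The last 4528 bp of the gene lacked xChIP H1.2 peaks, and 47.6% of that stretch lay in xChIP H1.5 peaks. Exons were covered by xChIP H1.2 to 40.2% and introns to 86.2%. A stretch without xChIP H1.2 at the 3' end was thus common to STX1A, EIF4H, BAZ1B and GTF2I.

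In all, the 10 genes held 13 xxChIP H1.2 peaks, in GTF2I, GTF2IRD1, BAZ1B and ELN, and 7 xxChIP H1.5 peaks, in GTF2IRD1, BAZ1B, CLIP2 and ELN. Measured from the outermost TSS they lay deep in the genes, with the nearest peak centre 15079 bp away for H1.2 and 19868 bp for H1.5. Other annotated start sites of GTF2I and ELN did have an xxChIP peak within 1000 bp. An exon was touched by 4 of the 13 and by 1 of the 7. Of the 13 H1.2 peaks 12 overlapped an xChIP peak of H1.2, each lying wholly inside it, and 7 overlapped an xChIP peak of H1.5. Of the 7 H1.5 peaks, those numbers were 7 and 6. Genome-wide, 44.5% of the xxChIP peaks of H1.2 and 43.3% of those of H1.5 overlapped an xChIP peak of H1.2, and 34.2% and 33.7% overlapped one of H1.5. With 94.7% of the 2 Mb in xChIP H1.2 peaks and 55.0% in xChIP H1.5 peaks, nothing is read from these overlaps. Of each kind 2 met a peak of the other xxChIP list, where 54.8% of the H1.2 and 59.3% of the H1.5 peaks did genome-wide. Both xxChIP lists are sparser here than genome-wide, so these numbers do not compare how well they agree.

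The longest xChIP H1.2 peak itself ran over chr7:73651204-74126926. It began in an intron of RFC2, 17.6 kb from the TSS of that gene, passed over CLIP2 and GTF2IRD1 completely, and ended in an intron of GTF2I, 62.4 kb from its TSS. It took in 76.6% of RFC2 and 56.5% of GTF2I. The 120 bases across its end (chr7:74126867-74126986, plus strand) are printed with the bases inside the peak in capitals, since the edges set the length by which the region was chosen.
End of the peak: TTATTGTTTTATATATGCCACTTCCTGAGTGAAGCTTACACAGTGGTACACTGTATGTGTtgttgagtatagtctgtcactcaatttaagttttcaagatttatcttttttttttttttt
The GC content was 29.2% around the end, where a run of T follows, while the whole peak had 50.6%. A stretch of 7068 bp with no peak of any list followed the end inside GTF2I, all in unique sequence and with a GC content of 33.3%.

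Within the longest peak, 23 xChIP H1.5 peaks covered 73.2%, 6 xxChIP H1.2 peaks covered 1.77% and 4 xxChIP H1.5 peaks covered 1.01%. Both xxChIP values were the lowest among the 10 longest xChIP H1.2 peaks of the genome, and the xChIP H1.5 value was the second highest after 79.98%. In the other 9, xChIP H1.5 covered 29.3% to 79.98%. In 8 of these 9, xxChIP coverage was 4.13% to 9.79% for H1.2 and 1.90% to 6.21% for H1.5. The exception was the peak at chr12:37943654-38303280, beside a centromere and with no protein-coding gene, where the xxChIP coverage was 77.5% (H1.2) and 66.7% (H1.5). Hence a long xChIP H1.2 peak did not always go with low xxChIP coverage. Further peaks of the 2 Mb ranked 21, 22 and 28 among the 142645 xChIP H1.2 peaks, with lengths of 261574, 260037 and 239737 bp.

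**Figure D4:**
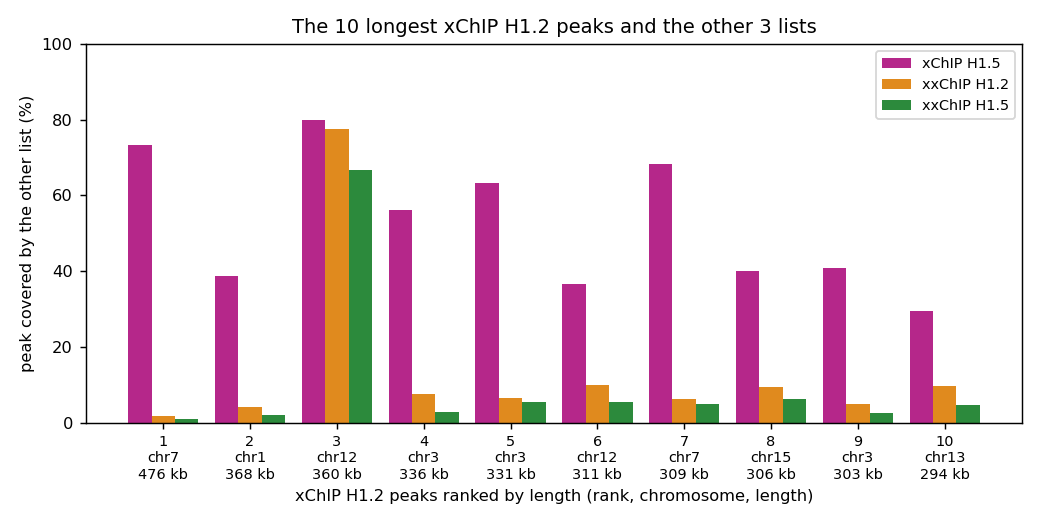
Percent of each of the 10 longest xChIP H1.2 peaks covered by peaks of the other 3 lists (bars), ranked by length with chromosome and length in kb under each. The peak on chromosome 7 at rank 1 has 73.2% in xChIP H1.5 and the lowest xxChIP bars (1.77% and 1.01%), and the peak at rank 3 on chromosome 12 has xxChIP bars of 77.5% and 66.7%.

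The other 17 genes listed for the Williams deletion had high xChIP coverage of the gene body and low xxChIP coverage in most cases. They lie in the same 2 Mb, of which 94.7% was in xChIP H1.2 peaks. Their xChIP H1.2 counts, for bodies and promoters, thus follow from the choice of the region, and nothing is read from them. At least 50% of the gene body was covered by H1.2 in 17 of 17 and by H1.5 in 9 in xChIP, and in 0 by either in xxChIP, against 31%, 4.88%, 2.2% and 1.8% of all genes in that order. The median coverage in xChIP was 100% for H1.2 and 54.9% for H1.5, and in xxChIP it was 0% for both. The xChIP H1.5 list divided them: NSUN5, VPS37D, ABHD11 and NCF1 were covered completely, and FKBP6, FZD9, DNAJC30, CLDN3, METTL27 and TMEM270 not at all. At their promoters, xChIP gave a peak of H1.2 in 17 and of H1.5 in 9, and xxChIP a peak of H1.2 in 1 and of H1.5 in 3. The shares were 100%, 52.9%, 5.88% and 17.6%, against 48.2%, 21.6%, 8.78% and 7.92% of all genes. The promoters with xxChIP peaks were NSUN5, with 5.40% in xxChIP H1.2, and TRIM50, FKBP6 and TMEM270, with 98.5%, 94.5% and 33.3% in xxChIP H1.5. The promoters of TRIM50 and FKBP6, which are transcribed away from each other, overlap and share their peak. With 17 genes and a shared peak, the share of promoters with an xxChIP H1.5 peak is not read as above the background. In the gene body, TMEM270 had 25.4%, FKBP6 13.6% and TRIM50 12.6% in xxChIP H1.5, above 91.9%, 77.1% and 75.0% of all genes. Both xChIP peaks without an xxChIP peak were found at 7 of the 17 promoters, against 12.6% of all genes. As the xChIP H1.2 peaks follow from the choice of the region, nothing is read from this count either.

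NCF1, which encodes a cytosolic subunit of the phagocyte NADPH oxidase and is a myeloid gene, was covered to 100% by both xChIP lists and to 0% by both xxChIP lists. Only 35.5% of its 100-base stretches were unique, and 24.7% in GTF2IRD2, where xChIP coverage was 100% (H1.2) and 95.8% (H1.5) and xxChIP coverage 5.46% and 2.48%. As both genes have near-identical copies, their values are uncertain, and the part of this in the result was not tested.

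Outside the region, the genes of at least 10 kb with a gene-body pattern most like the medians of the 10 genes were UBE2K, GDF11, PTPN7, SERF1A and TMEM59L. Their mean absolute difference over the 4 lists was 0.486 to 0.914 percentage points. Among the 14839 genes searched, 1732, or 11.7%, had a mean absolute difference of at most 10 points. A mean over 4 lists can hide a large difference in 1 of them, so this count is a loose measure of likeness. SERF1A has a near-identical copy, SERF1B, and its value is uncertain. None of the 5 stayed among the nearest when promoter coverage was added to the measure.

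In the 250 bases before the TSS, letters of 4 motifs were counted on both strands. CpG was present in all 10 promoters (96.3% of all promoters) and the GC box GGGCGG in 5 of 10 (48.8% of all), with 8 copies in CLIP2 and 7 in STX1A. The letters TATAAA were found in GTF2I only (10.1% of all), and GAGGAA, the core bound by the myeloid factor PU.1, in 0 of 10 (23.2% of all). These counts are near their backgrounds.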

How the data were processed

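Chromatin of HL-60/S4 cells was immunoprecipitated in triplicate by xChIP and xxChIP with antibodies to H1.2 or H1.5. The authors sequenced paired ends on an Illumina HiSeq, aligned them to hg19 with Bowtie2 keeping reads with a unique position, ran the peak caller MUSIC with its defaults and merged the replicates. They deposited 4 lists of chromosome, start and end, with no score or read number, so no depth, interval or floor is given. Merging can lengthen peaks. The labels give the protocol and antibody that define the groups, and Input (6 samples) was not used.

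From these positions, coverage (percent of bases inside peaks) was computed for gene bodies, promoters (TSS, the outer end of the gene, and 1000 bp each side) and 10-kb windows with at least 50% known sequence. Genes were the protein-coding genes of GENCODE 44 lifted to GRCh37, on chromosomes 1 to 22 and X. Sequences were read from the GRCh37 genome. Uniqueness is by exact match of 100-mers and stands in for mappability, since the read length is not given in the sources used here. Python 3.11.15, numpy 2.4.6, numba 0.67.0, pyfaidx 0.9.0.4 and matplotlib 3.10.9 were used. The coverage and uniqueness steps were tested on simulated data with known answers.

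The members, gene lists and measures were chosen with earlier results of these data known. Named genes were the 10 members, the other 17 genes listed for the deletion and genes at the edges of the longest xChIP H1.2 peak. The 5 genes elsewhere of at least 10 kb closest to the median coverages of the members were also named. With 1 merged list per group, no test was run. Alternatives varied the share that counts as covered, the promoter width and start site, the gene part, the window size, short peaks, the joining of near peaks and the duplicated windows. The canonical start site was added as an alternative after seeing the data.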

Additional observations from a re-analysis of the deposited data

How the results depend on the processing

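Of 89 values recomputed under other settings, 76 stayed within 1.5 times the reported count or share and 13 did not. Members with at least 50% of the body in xChIP H1.5 peaks numbered 3, against 8 at a limit of 20%, 1 at a limit of 80% and 1 over exons only. With any annotated start site, 2 members had an xxChIP H1.2 peak at a promoter (GTF2I and ELN) and 1 had an xxChIP H1.5 peak (ELN), against 0, where 27.6% and 25.3% of all genes had one by that rule. For xxChIP H1.2, 1 window of 10 kb reached 50%, against 10 at a limit of 20% and 0 at a limit of 80%, and the share of windows went from 0.5% to 1.5% with 5-kb and 0% with 20-kb windows. For xxChIP H1.5 there were 5 windows at a limit of 20% and 0.5% of 5-kb windows, against 0 as reported. Of the other 17 genes, 1 (TMEM270) reached 20% in xxChIP H1.5, against 0 at 50%. The canonical start site, chosen after seeing the data, gave 9, 5, 0 and 0 promoters with a peak, against 9, 6, 0 and 0.

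No paired analysis was possible because the 3 replicates of a group were merged into 1 list, and leaving out a replicate was impossible for the same reason. A peak held by 1 replicate cannot be told from a peak held by 3. Absence of a peak says only that none was called at an unknown depth.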
